A study of Homo sapiens with 24 samples.

Results

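The genes described here were FOS, FOSB, FOSL1, JUN, JUNB, EGR1, IER2, IER3, ATF3 and MYC, 10 of the 20345 gene IDs in the count table of RNA-seq of A2058 cells. They were chosen by symbol, as immediate early genes and MYC, and all 10 were found through their Ensembl IDs in the GENCODE annotation of hg19. In hg19 the genes lie at chr14:75745529-75748933 (FOS, + strand), chr19:45971253-45978437 (FOSB, +), chr11:65659520-65668044 (FOSL1, -), chr1:59242517-59249720 (JUN, -) and chr19:12902300-12904129 (JUNB, +). EGR1 lies at chr5:137801168-137804992 (+), IER2 at chr19:13261225-13265725 (+), IER3 at chr6:30710976-30712325 (-), ATF3 at chr1:212738676-212794119 (+) and MYC at chr8:128747680-128755197 (+). A2058 is a human line derived from melanoma. Its cells received siRNA against LSM14A (siLSM14A) or a scrambled control (siCTRL), and were left untreated (NT) or treated with hydroxyurea (HU) at 10 mM for 2 h, a dose and time given in the study's methods. LSM14A is an RNA-binding protein of cytoplasmic RNA granules that represses translation, and the study asked whether it controls the translation of particular mRNAs upon HU stress. The 4 conditions were thus siCTRL NT, siCTRL HU, siLSM14A NT and siLSM14A HU, with 3 replicates each, and each replicate gave a library of total RNA and a library of polysomal RNA from the heavy fractions of a sucrose gradient, 24 libraries in all. In the study's methods cycloheximide, which blocks translation elongation, was added to the culture medium shortly before collection for polysome profiling. The methods do not set control and treated cells apart in this step. No library known to lack cycloheximide was analysed here, so its effect on these mRNAs was not tested. The labels do not say whether replicates were separate transfections, so p-values measure the spread between these libraries, which may be technical. The tests also borrow dispersion from all genes, so a p-value does not measure the spread of its own gene alone. In bulk RNA, fewer cells with a transcript and less of it per cell cannot be told apart.

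Immediate early genes are transcribed within minutes of a growth signal or a stress, without need of new protein synthesis, by factors such as SRF, ELK1 and CREB1 that are already in the cell. Their mRNAs are short-lived, in many cases through AU-rich elements in the 3′ UTR, and most of their products are transcription factors. FOS, FOSB and FOSL1 encode Fos proteins and JUN and JUNB encode Jun proteins, which pair to form the AP-1 factor. ATF3 is a stress-induced relative of these factors, EGR1 is a zinc finger factor, IER2 and IER3 are small proteins, and MYC is a factor that drives growth and biosynthesis. In melanoma cells the MAPK pathway, which acts on many of these genes, is commonly active.

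AU-rich elements are built on the pentamer ATTTA, and the 3′ UTR of the canonical transcript held at least 1 pentamer in 9 of the 10 genes, against 74.1% of the 12649 3′ UTRs of tested genes. FOS held 5 pentamers in 806 bases, JUN 3 in 1284 bases, EGR1 1 in 1222 bases, IER3 6 in 737 bases and MYC 6 in 1993 bases. IER2 held none in 1053 bases. Per kb the pentamers numbered 8.14 for IER3, 6.20 for FOS, 4.0 for JUNB, 3.01 for MYC, 2.46 for ATF3 and 2.34 for JUN. They numbered 1.38 for FOSB, 1.19 for FOSL1 and 0.818 for EGR1, beside a median of 1.77 over all these UTRs. The nonamer TTATTTATT, which contains the pentamer, was in the FOS UTR and in 9.76% of all UTRs. The windows of 30 bases below are shown for the genes whose RNA moved most, FOS, JUN and EGR1, and for IER3 as the UTR with the most pentamers per kb. They are read 5′ to 3′ on the strand of the gene, and capitals mark each pentamer.
FOS (hg19, chr14:75748760-75748789, + strand): ttgtgtttttaATTTATTTAttaagatgga
JUN (hg19, chr1:59247008-59247037, - strand): ttccagaaaggatATTTAagaaaatacaat
EGR1 (hg19, chr5:137804752-137804781, + strand): actgaaaatgtaaATTTAtaaatatattca
IER3 (hg19, chr6:30711425-30711454, - strand): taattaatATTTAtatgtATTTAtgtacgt
In FOS the capitals are 2 pentamers that share a base. A pentamer is a match of letters and not a measured site.

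Promoter sequences of 300 bases (RefSeq, build GRCh38.p14) were at hand for 7 of the 10 genes, and were searched on both strands. The CArG box, the sequence that SRF binds, had a match within these 300 bases in EGR1 alone of the 7, at 2 positions, and in 1.29% of all 35116 promoters. Sequence outside the 300 bases was not searched, so a missing match does not show that a gene lacks the site. The TATA box (TATAAA) was in FOS, FOSB and JUNB and in 11.5% of all promoters. The cyclic AMP response element (in 1.85% of promoters) and the AP-1 site (TGACTCA or TGAGTCA, in 4.95%) had no exact match in these windows. The 2 matches in EGR1, one of the genes whose RNA moved most, are shown with the box in capitals, and a match is a description and not a bound site.
EGR1 CArG box 1 (GRCh38.p14, chr5:138465364-138465393, + strand): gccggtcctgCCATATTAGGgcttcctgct
EGR1 CArG box 2 (GRCh38.p14, chr5:138465386-138465415, + strand): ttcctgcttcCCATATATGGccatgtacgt

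Total RNA libraries held 24789280 to 40645263 counts and polysomal libraries 28776634 to 44897501. LSM14A, the targeted gene, had 84.3 ± 2.33 CPM (counts scaled to library size with TMM factors, SD, n = 3) in total RNA of siCTRL NT cells and 7.52 ± 0.708 in siLSM14A NT cells, and 85.9 ± 5.08 and 6.81 ± 0.794 upon HU. All 10 melanoma and melanocyte markers were detected, with summed levels of 2391 to 2609 CPM in total RNA and overlapping ranges in the 4 conditions. Markers of other cell types summed to 4.71 to 6.15 CPM, without PECAM1, for which no value was obtained. The highest were KRT14 (0.997 to 2.83 CPM), DCN (1.18 to 1.95) and COL1A1 (0.957 to 1.59). KRT5 had no count in any total RNA library. The libraries of siLSM14A NT stood apart by their replicate numbers. In siCTRL HU and siCTRL NT total RNA, same-numbered libraries deviated together from the means of their conditions (r over genes of 0.27, 0.25 and 0.19 for replicates 1, 2 and 3), and so did those of siLSM14A HU and siCTRL HU (0.33, 0.18 and 0.25). Between siLSM14A NT and siCTRL NT the values were -0.25, 0.26 and -0.22, and between total and polysomal RNA of siLSM14A NT they were -0.31, 0.11 and -0.23. The total RNA library numbered 3 in siLSM14A NT correlated at 0.41 with the polysomal library numbered 1 of that condition. Tests without a block do not use the numbers, while tests with a replicate block and ratios per replicate do.

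The levels of the 10 genes differed widely per length of transcript. In total RNA of siCTRL NT cells, the mean level per kb of the canonical transcript was highest for IER3, at 41.9 ± 10.3 CPM per kb (SD, n = 3), followed by FOSL1 at 35.3 ± 4.26, JUNB at 25.1 ± 3.46 and IER2 at 22.6 ± 2.03. MYC followed at 10.5 ± 0.468, FOS at 8.45 ± 1.82, JUN at 4.83 ± 2.95, ATF3 at 2.71 ± 0.374 and EGR1 at 1.78 ± 0.972. FOSB was last at 0.264 ± 0.0721 CPM per kb. In this order, the ranges of the 3 libraries overlapped between IER3 and FOSL1, between JUNB and IER2, and between each pair of neighbours from FOS to EGR1. They did not overlap between FOSL1 and JUNB, IER2 and MYC, MYC and FOS, or EGR1 and FOSB. FOSB rested on 24 to 54 counts per library of total RNA, where counting error alone gives an SD of up to 0.29 on the log2 scale, and EGR1 on 96 to 422.

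In polysomal RNA of siCTRL NT cells, JUNB led the order with 44.5 ± 10 CPM per kb, ahead of FOSL1 at 42.6 ± 10.5, IER3 at 32.6 ± 8.7 and IER2 at 32 ± 3.52, and the ranges of these neighbours overlapped. MYC had 9.33 ± 0.872, FOS 6.85 ± 2.12, JUN 3.93 ± 2.61, ATF3 2.23 ± 0.635, EGR1 0.933 ± 0.173 and FOSB 0.369 ± 0.109 CPM per kb. The means of the lower 6 genes thus kept the order they had in total RNA. Ranges overlapped between each pair of neighbours from MYC to ATF3, and did not between ATF3 and EGR1 or between EGR1 and FOSB.

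**Figure D1:**
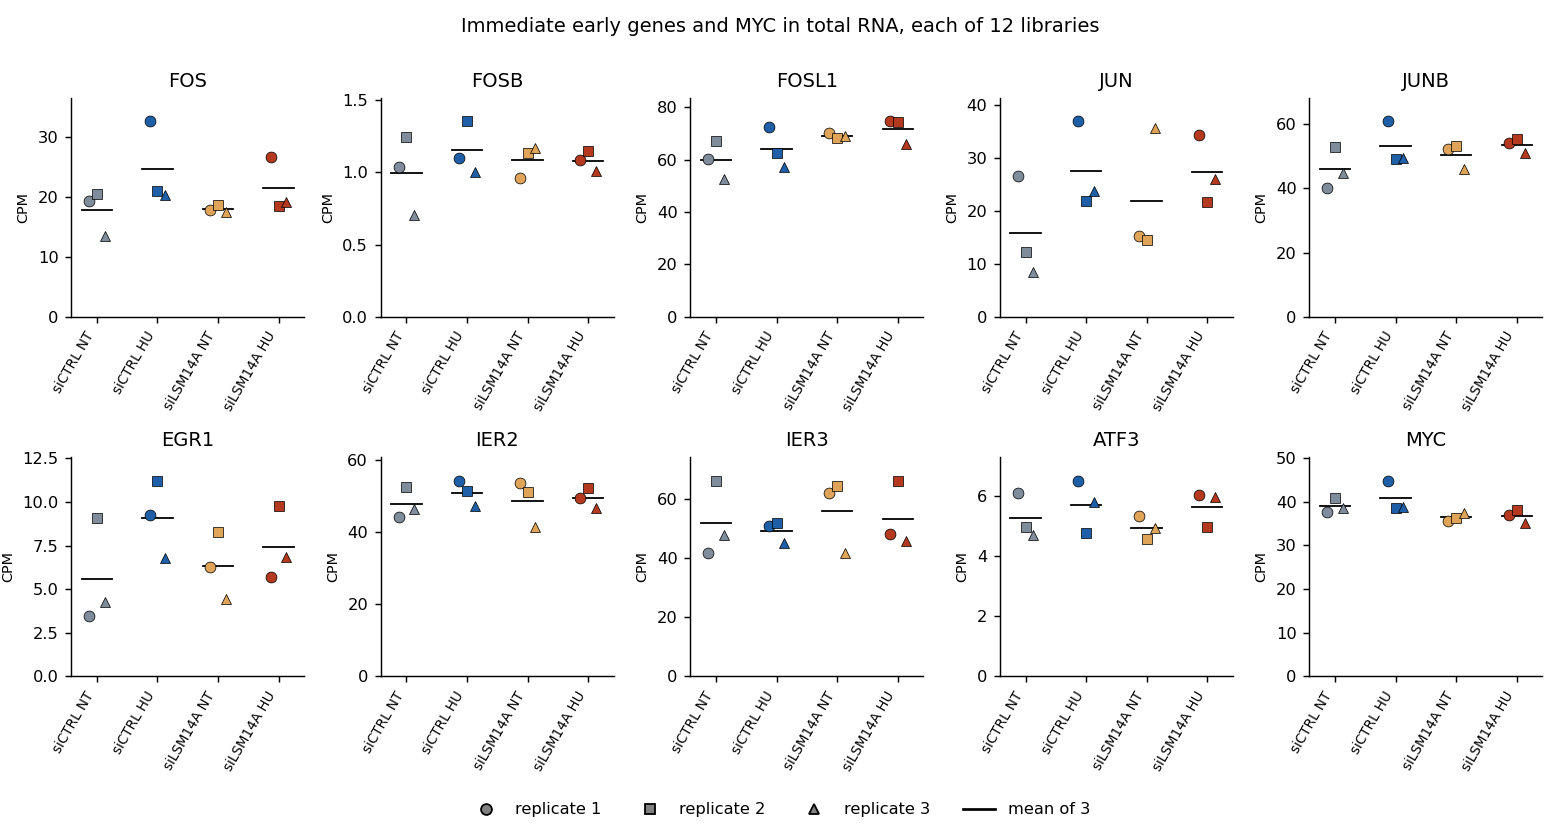
Level of each gene in total RNA (CPM, TMM) in the 12 libraries, grouped by condition on the x axis. Symbols give the replicate number and lines the mean of 3 libraries. JUN spanned 8.43 to 36.9 CPM and MYC 35.1 to 44.8 CPM.

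JUN and EGR1 were the most variable of the 10 genes and MYC the least. Over the 12 total RNA libraries JUN spanned 8.43 to 36.9 CPM, a ratio of 4.38 between the highest and the lowest. EGR1 spanned 3.44 to 11.2 CPM, a ratio of 3.26, and FOS 13.4 to 32.7 CPM, a ratio of 2.44. The ratio was 1.92 for FOSB, 1.59 for IER3, 1.51 for JUNB, 1.42 for FOSL1 and for ATF3, 1.31 for IER2 and 1.28 for MYC. Much of this lay between replicates of 1 condition. The SD within conditions was 0.62 on the log2 scale for JUN, larger than that of 98.6% of 12862 genes, and 0.50 for EGR1, larger than that of 96.7%. It was 0.29 for FOS and for IER3, 0.15 for JUNB, 0.13 for FOSL1 and IER2, and 0.08 for MYC, where the median gene had 0.10. In polysomal RNA, where the median gene had 0.25, the SD was 0.53 for JUN, 0.42 for EGR1, 0.31 for FOS and 0.18 for MYC.

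For several genes the same replicate number was highest in every condition. In total RNA the level of EGR1 and that of IER3 were highest in replicate 2 in all 4 conditions, and that of ATF3 was highest in replicate 1 in all 4. JUN was highest in replicate 1 in 3 conditions and in replicate 3 in siLSM14A NT. In polysomal RNA, FOS was highest in replicate 1 in all 4 conditions, and JUNB, IER2 and IER3 were highest in replicate 2 in all 4. How many of all genes do so was not counted. The 4 conditions include siLSM14A NT, whose numbers did not deviate together with those of siCTRL NT.

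HU treatment of siCTRL cells went with more JUN, FOS and EGR1 RNA in same-numbered libraries. JUN, a Jun subunit of AP-1, had 26.6, 12.1 and 8.43 CPM in total RNA of siCTRL NT replicates 1, 2 and 3, and 36.9, 21.8 and 23.8 CPM in siCTRL HU. The JUN level in replicate 1 without HU lay above 2 of the 3 levels with HU, so the groups overlapped, while each same-numbered pair was higher with HU, by 1.39, 1.80 and 2.82 times. FOS, its Fos partner, had 19.4, 20.6 and 13.4 CPM in NT and 32.7, 20.9 and 20.4 CPM in HU, with ratios of 1.69, 1.02 and 1.52. EGR1 had 3.44, 9.08 and 4.24 CPM in NT and 9.23, 11.2 and 6.79 CPM in HU, with ratios of 2.69, 1.24 and 1.60. For these 3 genes all 3 same-numbered pairs were higher with HU, and the groups overlapped. The same held for FOSB, with ratios of 1.06, 1.09 and 1.42 on few counts per library. How many of all genes rose in all 3 pairs was not counted, so this only describes these libraries.

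Without pairing, none of the 10 genes passed an adjusted p-value under 0.05 in edgeR's quasi-likelihood test of siCTRL HU against siCTRL NT in total RNA, and neither did any of the 12506 genes tested (0%), while DESeq2 called 1 of them. At an unadjusted p-value under 0.05, the test called 3 of the 10 genes and 1.44% of all genes, and DESeq2 called 1 of the 10 unadjusted and 0 adjusted. The log2 changes were 0.82 for JUN (SE 0.31, unadjusted p = 0.0221), 0.46 for FOS (SE 0.18, unadjusted p = 0.0241) and 0.66 for EGR1 (SE 0.28, unadjusted p = 0.0374), each with an adjusted p = 1.00 after rounding.

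Replicate number was also entered in the fit as a block, an alternative to the main test, because these same 6 libraries shared deviations. The labels number the replicates but do not state a pairing. With the block, JUN, FOS and EGR1 were called higher upon HU. The test then called 15 of 12506 genes (0.12%), of which 10 were higher with HU (0.08% of genes tested). JUN had the smallest p-value of all genes, with a log2 change of 0.90 (SE 0.11, adjusted p = 3.45e-05). EGR1 rose by 0.72 (SE 0.13, adjusted p = 0.0107) and FOS by 0.45 (SE 0.09, adjusted p = 0.0261). These SEs and p-values rest on a dispersion moderated over all genes, and do not measure the spread of the 3 pairs alone. The pair ratios ran from 1.39 to 2.82 for JUN, 1.24 to 2.69 for EGR1 and 1.02 to 1.69 for FOS. The list of 35 other immediate early genes, of which 34 were tested, gave 5 further calls, all higher, with a median log2 change of 0.10 over the list and 0.00 over all genes. By the rule for naming, these are PPP1R15A, a regulatory subunit of a phosphatase that acts on eIF2α (0.31, SE 0.05, adjusted p = 0.00397), and NFKBIA, an inhibitor of NF-κB (0.43, SE 0.07, adjusted p = 0.00397). The other calls were named after their values were seen. CCN1 (0.78) and CCN2 (0.63), matricellular proteins, were higher with HU in 2 of 3 pairs, and CXCL8 (0.36), a chemokine, in 3 of 3. Of the 10 genes that rose, 8 were thus of the genes described here or of the list of other immediate early genes, and the remaining 2 were SOCS3 (0.53), a feedback inhibitor of cytokine signalling, and DEPP1 (1.14). Both sets of genes were chosen with earlier results of these data known, so the count of 8 is a description and not independent support. The 5 genes that fell were SYNM, ZKSCAN8, DDIT4, NES and CLK1, none of them on a list used here. These calls rest on the replicate numbers. Without siCTRL NT replicate 1, the untreated library with the most JUN, and without a block, JUN had a log2 change of 1.40 (adjusted p = 0.0153), a larger value that leaving out this library fixes, while EGR1 had 0.43 (adjusted p = 1.00).

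**Figure D2:**
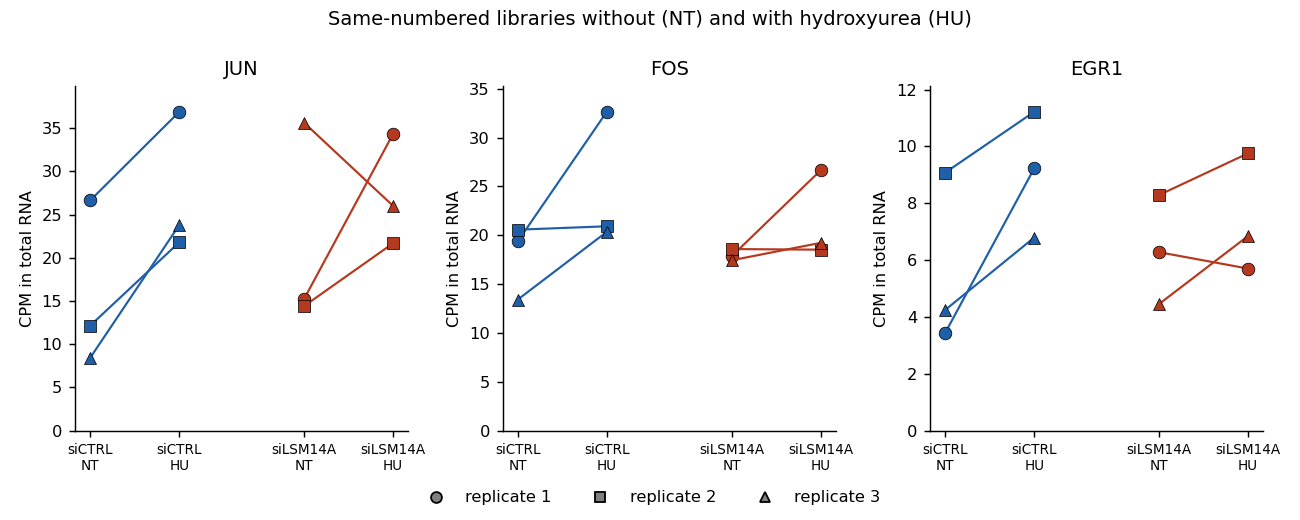
Level of JUN, FOS and EGR1 in total RNA (CPM) without and with HU, in siCTRL cells (blue) and siLSM14A cells (red). Lines join libraries with the same replicate number and symbols give that number. In siCTRL cells every line goes up, and in siLSM14A cells the line of JUN replicate 3 goes from 35.6 to 26 CPM.

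The other 7 genes gave no call in siCTRL total RNA. JUNB had 40.2, 52.8 and 44.8 CPM in NT and 61.0, 49.0 and 49.5 in HU, with a log2 change of 0.21 (SE 0.10, unadjusted p = 0.0639). FOSB changed by 0.20 (SE 0.26), ATF3 by 0.12 (SE 0.15), FOSL1 by 0.09 (SE 0.09), IER2 by 0.09 (SE 0.07), MYC by 0.06 (SE 0.07) and IER3 by -0.08 (SE 0.13). The median over the 10 genes was 0.16, and 9 of them had a positive value.

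In siLSM14A cells, none of the 10 genes passed in siLSM14A HU against siLSM14A NT in total RNA (0% of 12497 genes adjusted, 5.2% unadjusted, and 0 of the 10 genes at an unadjusted p-value under 0.05). DESeq2 called 0 of the 10 adjusted and 1 unadjusted. JUN had 15.2, 14.4 and 35.6 CPM in NT and 34.3, 21.7 and 26 CPM in HU, a log2 change of 0.31 (SE 0.28). The total RNA library numbered 3 in siLSM14A NT was the highest of the 6 for JUN. Without it the log2 change of JUN was 0.88 (adjusted p = 0.0446), but leaving out the highest untreated library can only enlarge that change, so it is given only to show how much rests on 1 library. FOS had 17.8, 18.6 and 17.4 CPM in NT and 26.7, 18.5 and 19.2 CPM in HU, a log2 change of 0.25 (SE 0.12, unadjusted p = 0.0558). EGR1 had 6.28, 8.29 and 4.45 CPM in NT and 5.70, 9.76 and 6.85 CPM in HU, a log2 change of 0.22 (SE 0.22). MYC changed by 0.00 (SE 0.06), and the median over the 10 genes was 0.06.

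**Figure D3:**
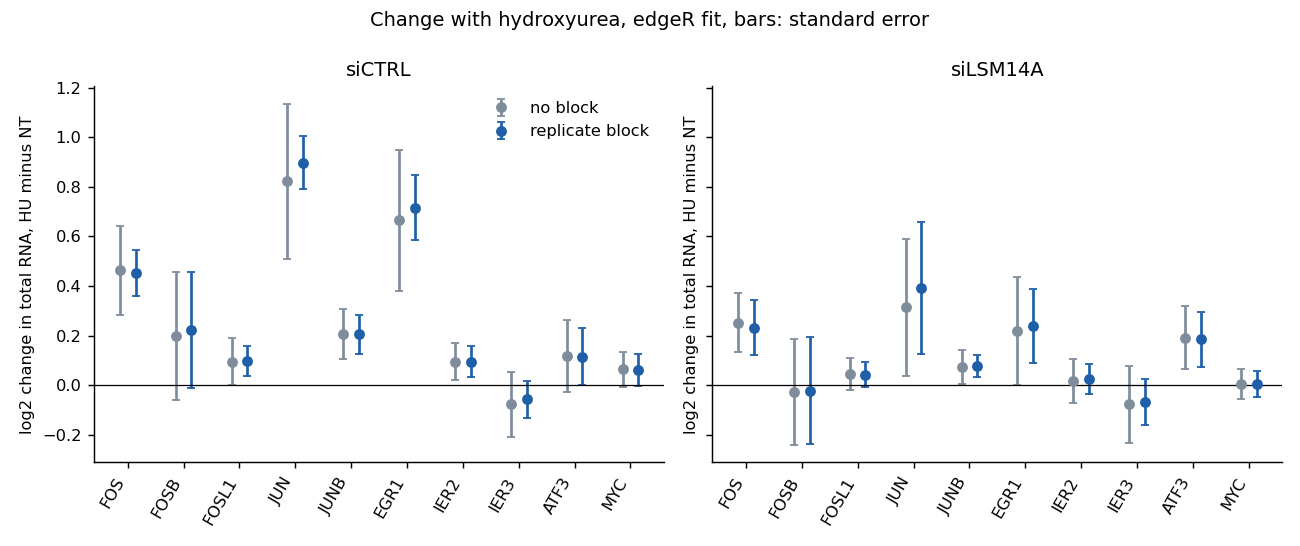
Log2 change in total RNA upon HU (y axis) of each gene in siCTRL cells (left) and siLSM14A cells (right), from the edgeR fit without a block (grey) and with a replicate block (blue). Bars are standard errors. In siCTRL cells the block changed the JUN value from 0.82 to 0.90 and its standard error from 0.31 to 0.11.

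Whether the response to HU differed between siLSM14A and siCTRL cells was tested as an interaction. None of the 10 genes passed in total RNA (0% of 12666 genes adjusted, 2.9% unadjusted, 0 of the 10 unadjusted), and DESeq2 called 0 of the 10. The interaction was -0.51 for JUN (SE 0.51), -0.45 for EGR1 (SE 0.43) and -0.21 for FOS (SE 0.25), and negative for 8 of the 10 genes. Without siLSM14A NT replicate 3 that of JUN was 0.06. The standard errors of JUN and EGR1 were about as large as the values, so the data do not tell whether the responses differed.

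Polysomal RNA of the same genes was measured with a wider spread. In siCTRL cells none of the 10 genes passed upon HU (0% of 12315 genes adjusted, 2.1% unadjusted). EGR1, with 2.79, 3.53 and 2.47 CPM in NT and 4.08, 4.04 and 5.01 CPM in HU, was the one with an unadjusted p-value under 0.05 (log2 change 0.57, SE 0.24, unadjusted p = 0.0316, adjusted p = 0.933). Its HU libraries all lay above its NT libraries, as they did for JUNB (0.31, SE 0.18) and IER2 (0.33, SE 0.16). How many of all genes had groups without overlap was not counted in any comparison, so such separation only describes the libraries. JUN had 22.6, 8.67 and 7.16 CPM in NT and 20.5, 16.9 and 22.8 CPM in HU (0.63, SE 0.36), and FOS changed by 0.33 (SE 0.26). The block, although same-numbered polysomal libraries also deviated together here (0.25, 0.18 and 0.45), left 0 of the 10 genes past the adjusted threshold. At an unadjusted p-value under 0.05 it called 6 of the 10, FOSL1, JUN, JUNB, EGR1, IER2 and IER3, all higher with HU, beside 1263 of 12315 genes. JUN had 0.81 (SE 0.22, adjusted p = 0.195) in that fit. In siLSM14A cells none passed either (0% of 12290 genes adjusted, 0.871% unadjusted). FOS had 14, 12.2 and 13.4 CPM in NT and 19.8, 18.4 and 15.3 CPM in HU, groups that did not overlap (log2 change 0.43, SE 0.18, unadjusted p = 0.0351). MYC had 29.1, 25.3 and 30.03 CPM in NT and 33.2, 38.5 and 36.3 CPM in HU, which did not overlap either (0.35, SE 0.16, unadjusted p = 0.0513). JUN changed by 0.51 (SE 0.26) and EGR1 by 0.48 (SE 0.34). The interaction in polysomal RNA gave no call among the 10 genes (0% of 12515 genes adjusted, 1.07% unadjusted, 0 of the 10 unadjusted). DESeq2 called 0 of the 10 adjusted in each of these 3 tests.

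Between siLSM14A and siCTRL cells without HU, FOSL1 and MYC were the genes of the 10 whose total RNA libraries did not overlap, and neither passed the adjusted threshold. Separate groups were not counted over all genes, so they are not read as a trait of FOSL1 and MYC. FOSL1, a Fos protein, had 60.2, 67.1 and 52.6 CPM in total RNA of siCTRL NT and 70.2, 68.2 and 69.3 CPM in siLSM14A NT, groups that did not overlap (log2 change 0.20, SE 0.08, unadjusted p = 0.0256, adjusted p = 0.387). No other gene of the 10 had an unadjusted p-value under 0.05 there, where the test called 0.566% of 12544 genes adjusted and 10.8% unadjusted. MYC had 37.5, 40.9 and 38.5 CPM in siCTRL NT and 35.6, 36.2 and 37.5 CPM in siLSM14A NT, which touch at 37.5 after rounding but did not overlap (-0.10, SE 0.06). Upon HU, MYC had 44.8, 38.6 and 38.9 CPM in siCTRL and 36.8, 38.2 and 35.1 CPM in siLSM14A, again without overlap (-0.16, SE 0.07, unadjusted p = 0.0462, adjusted p = 0.576). In that comparison 0.802% of 12475 genes passed adjusted and 8.54% unadjusted.

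A replicate block was used beside the main test upon HU too, because same-numbered libraries of this comparison deviated together. Under the block, FOSL1 was called higher and FOS lower in siLSM14A HU than in siCTRL HU. The log2 changes were 0.16 for FOSL1 (adjusted p = 0.021) and -0.19 for FOS (SE 0.06, adjusted p = 0.041), and the test called 855 of 12475 genes (6.85%). The FOS libraries had 32.7, 20.9 and 20.4 CPM in siCTRL HU and 26.7, 18.5 and 19.2 CPM in siLSM14A HU, lower in each pair, and without siCTRL HU replicate 1 and without a block the change of FOS was 0.05. Of the 34 other immediate early genes tested, 5 passed, all higher in siLSM14A cells, among them CCN2 (0.36, SE 0.05) and CCN1 (0.29, SE 0.05). Of the 9 factors upstream of immediate early genes, SRF (0.16, also on the list of immediate early genes) and its coactivator MRTFA (0.17) were higher and ELK3 (-0.18), an ETS factor that works with SRF, was lower. Of the 10 tested genes of the AP-1 and partner list, ATF2 (-0.27, SE 0.05) was lower. Without the block and as counted, no gene of these lists passed in the total RNA comparisons of conditions, and with GC correction ATF2 passed as lower in siLSM14A NT than in siCTRL NT (-0.36, SE 0.07, adjusted p = 0.0442).

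In polysomal RNA, siLSM14A against siCTRL called none of the 10 genes in NT (0.0162% of 12342 genes adjusted, 1.96% unadjusted) or upon HU (0.0653% of 12256 genes adjusted, 4.99% unadjusted), with 0 of the 10 unadjusted in either and 0 adjusted with DESeq2. MYC had 35.7, 37.4 and 31.1 CPM in siCTRL NT and 29.1, 25.3 and 30.03 CPM in siLSM14A NT, which did not overlap (-0.31, SE 0.17). Upon HU it had 34.2, 25.7 and 37.6 CPM in siCTRL and 33.2, 38.5 and 36.3 CPM in siLSM14A (0.15, SE 0.17). FOSL1 had 0.19 (SE 0.21) in NT and -0.05 (SE 0.13) upon HU.

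The share of each mRNA in heavy polysomes was read as the log2 ratio of polysomal to total CPM, called translation efficiency (TE) here. JUNB had the highest mean TE, 0.83, with values of 0.22 to 1.11 over 12 same-numbered pairs of libraries, all above 0. IER2 followed at 0.59 (-0.09 to 0.91), FOSB at 0.40 (-0.26 to 1.07) and FOSL1 at 0.32 (0.00 to 0.60), with 11, 11 and 12 of 12 pairs above 0. EGR1 had the lowest, -0.87 (-1.57 to -0.30), with 0 of 12 pairs above 0. FOS had -0.36 (-0.60 to -0.01, 0 of 12), JUN -0.38 (-1.54 to 0.48, 1 of 12), ATF3 -0.26 (1 of 12), MYC -0.23 (2 of 12) and IER3 -0.18 (3 of 12). Both extremes of JUN, 0.48 and -1.54, were replicates 1 and 3 of siLSM14A NT, the pairs whose numbers did not deviate together, and the lowest values of JUNB, IER2 and EGR1 were replicate 1 of that condition too. With CPM on library totals alone, without TMM, every mean was lower, and the mean TE was 0.50 for JUNB, 0.25 for IER2, -0.02 for FOSL1 and -1.20 for EGR1, so the sign of FOSL1 depends on the scaling.

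**Figure D4:**
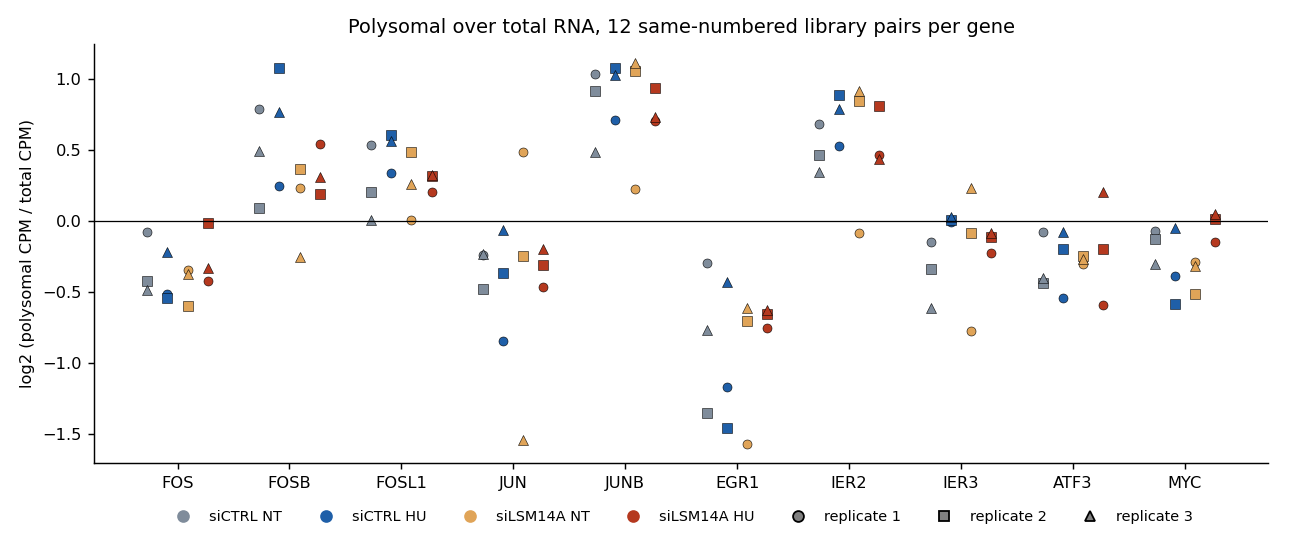
Log2 ratio of polysomal to total CPM (y axis) of each gene in 12 same-numbered pairs of libraries. Colours give the condition and symbols the replicate number. JUNB lies between 0.22 and 1.11 and EGR1 between -1.57 and -0.30.

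In the test of polysomal against total RNA within each condition, JUNB and IER2 were higher and EGR1 lower in polysomal RNA in all 4 conditions. JUNB had log2 differences of 0.82, 0.94, 0.86 and 0.79 in siCTRL NT, siCTRL HU, siLSM14A NT and siLSM14A HU, and IER2 0.50, 0.74, 0.61 and 0.58. EGR1 had -0.94, -1.04, -0.92 and -0.69, with adjusted p-values of 0.0439, 7.42e-04, 0.039 and 0.0429. FOSB (0.80) and FOSL1 (0.51) were also higher in siCTRL HU, FOSL1 (0.28) in siLSM14A HU, and FOS (-0.42) and MYC (-0.35) were lower in siLSM14A NT. The calls were 3, 5, 5 and 4 of the 10 genes, where 63.8%, 73.5%, 64.4% and 66.8% of all tested genes passed. The calls of higher polysomal RNA were 2, 4, 2 and 3 of the 10, beside 31.4%, 36.2%, 32.1% and 32.8% of all genes. The block was used beside the main test in siLSM14A HU only, where same-numbered libraries deviated together (0.17, 0.15 and 0.24). With the block, JUN was lower in polysomal RNA there as well (-0.33, SE 0.11, adjusted p = 0.025). The calls also rest on single replicates: without replicate 3 of siLSM14A NT 0 of the 10 genes passed there and without replicate 2 of it 1, without replicate 2 of siCTRL NT 1 passed, and without replicate 1 or 3 of siLSM14A HU 2 passed.

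These differences moved with GC content. The exons of the 10 genes had a GC content of 50.2% (ATF3) to 64.9% (JUNB), with 61.6% for IER2 and 59.5% for FOSL1, above the median of 47.7% over the genes tested. When each library was corrected for its own relation of counts to GC content, JUNB had 0.07, -0.0017, -0.0029 and 0.05 and IER2 -0.22, -0.18, -0.20 and -0.14 in the 4 conditions, and neither passed. FOSL1 turned to -0.42, -0.35, -0.43 and -0.36 and passed as lower in all 4. EGR1 became lower still, at -1.47, -1.66, -1.47 and -1.16, and FOS, IER3 and MYC passed as lower in all 4 conditions. No gene of the 10 was then higher in polysomal RNA, and 5, 6, 6 and 6 of them were lower, where 54.6%, 57%, 55.4% and 58.2% of all genes passed in either direction. Over all genes these calls went both ways. Higher were 3238 of 6793 called genes in siCTRL NT and 3475 of 7112 in siCTRL HU. In siLSM14A NT 3439 of 6937 were higher, and in siLSM14A HU 3508 of 7207. Of JUNB, IER2 and EGR1, EGR1 was thus the one called both as counted and with GC correction. Its calls as counted lay near the threshold in 3 conditions. With RLE size factors they were lost in siCTRL NT (-0.91, adjusted p = 0.0503) and siLSM14A HU (-0.65, adjusted p = 0.0519), and in 1 fit of all libraries in siLSM14A HU (-0.68, adjusted p = 0.0818), where JUNB and IER2 were still called.

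**Figure D5:**
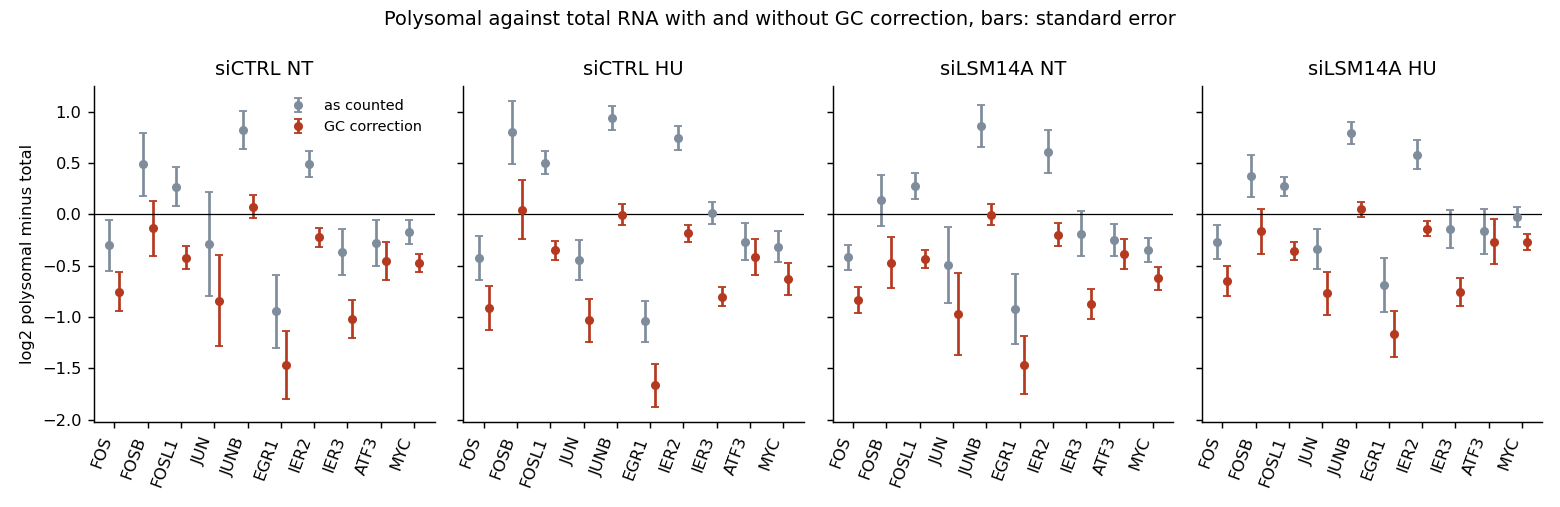
Log2 difference of polysomal and total RNA (y axis) for each gene in the 4 conditions, as counted (grey) and after GC correction (red). Bars are standard errors. EGR1 is below 0 in both, and JUNB goes from 0.82 to 0.07 in siCTRL NT.

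Changes of TE between conditions, which are the differences that the study's design addresses, gave no call among the 10 genes. None passed for siLSM14A against siCTRL in NT (0% of 12757 genes adjusted, 0.87% unadjusted) or upon HU (0% of 12649, 3.85% unadjusted), or for HU against NT in siCTRL cells (0% of 12693, 2.31% unadjusted). In these 3 tests 0 of the 10 genes had an unadjusted p-value under 0.05. In siLSM14A cells, HU against NT gave 0% of 12660 genes adjusted and 1.41% unadjusted, and MYC was the one gene of the 10 among the latter (log2 change of TE 0.34, SE 0.14, unadjusted p = 0.0352, adjusted p = 1.00). Its log2 TE was -0.29, -0.51 and -0.32 in siLSM14A NT and -0.15, 0.01 and 0.05 in siLSM14A HU, without overlap. In siCTRL cells it was -0.07, -0.13 and -0.31 in NT and -0.39, -0.58 and -0.05 in HU (change -0.16, SE 0.20). The siLSM14A NT ratios use numbers that did not deviate together. For HU in siLSM14A cells, 0 of the 10 genes passed unadjusted with a replicate block. The same held with culture (the same-numbered pair of libraries) as a block, and in 1 fit of all libraries. The interaction for MYC was 0.50 (SE 0.24, unadjusted p = 0.0452, adjusted p = 0.896), in a test that called 0% of 12855 genes adjusted and 1.9% unadjusted. With DESeq2, and with RLE size factors, 0 of the 10 genes passed that interaction test unadjusted. The total RNA of MYC in siLSM14A cells changed by 0.00 upon HU and its polysomal RNA by 0.35, both described above. For JUN the TE changes had standard errors of 0.30 to 0.71, for EGR1 0.35 to 0.57 and for FOS 0.21 to 0.36 in the 4 pairwise tests. DESeq2 called 0 of the 10 genes adjusted in each of the 5 tests of TE.

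The genes around these were followed through fixed lists. In total RNA upon HU in siCTRL cells, without the block, 8 of 34 other immediate early genes had an unadjusted p-value under 0.05 (median log2 change 0.10), as did 0 of 10 AP-1 and partner genes (0.03), 1 of 10 genes of the MYC network (-0.01), 0 of 10 genes that bind AU-rich elements or act in decay (0.04) and 0 of 9 upstream factors (0.02). None passed the adjusted threshold, and with the block only the 5 immediate early genes above did. Between polysomal and total RNA in siCTRL NT, where 63.8% of all genes passed and 31.4% were higher, 4 of 34 other immediate early genes were higher and 7 lower, a smaller share than over all genes. DUSP2, a MAPK phosphatase, was higher (1.01, SE 0.19) and KLF6, a zinc finger factor, was lower (-1.12, SE 0.18). Of the 10 tested AP-1 and partner genes, 3 were higher, with MAFK (0.70) and JUND (0.38) named, and 4 lower, with ATF2 (-1.496) and ATF7 (-0.65) named. Of the 10 tested genes of the MYC network, MXD4 (0.88) and MXD3 (0.79) were among 3 higher, and MXI1 (-1.09) and MXD1 (-0.51) were the 2 lower. Of the 10 genes of the AU-rich element list, ELAVL1 (0.49), which stabilises such mRNAs, and KHSRP (0.28), which promotes their decay, were higher, and 4 were lower, with PUM2 (-0.98) and ZFP36L2 (-0.53) named. Of the 9 upstream factors, MRTFA (0.74) was higher and 4 were lower, with ELK3 (-1.62) and ELK4 (-1.23) named. With GC correction, where 54.6% of all genes passed, no AP-1 or partner gene and no upstream factor was higher, so that MAFK, JUND and MRTFA were no longer called higher. In the MYC network MGA alone was then higher (0.69), and MXD4 and MXD3 were not called. ELAVL1 was called higher (0.51), and ATF2 (-0.75), MXI1 (-1.07), ELK3 (-1.29) and ELK4 (-0.62) lower, in both scalings. The median of the 34 other immediate early genes was then -0.24, with 4 higher and 13 lower.

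The genes whose total RNA moved most like the mean of the 10 within conditions were ANKRD37, VPS37B, RBM22, NELFE and EIF1. Their Pearson correlations with the mean, over 12 libraries and with condition means removed, were 0.95, 0.94, 0.94, 0.92 and 0.91, and the libraries share depth and scaling. Of the 10 genes, FOSL1 (0.97) and FOS (0.84) followed the mean most closely, although the mean includes them, and ATF3 (0.24) and JUN (0.33) least.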

How the data were processed

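Total and heavy-polysome RNA of A2058 cells was sequenced as stranded poly(A) libraries, 3 replicates in each of 4 conditions. Per the study's methods, the authors trimmed reads with TrimGalore and aligned them to hg19 with STAR 2.6.1a, and they deposited raw counts per gene on the Gencode annotation. Of 20345 gene IDs, 19086 were protein-coding in the annotation and were tested, 551 were of another type and 708 were not in it. These counts were analysed with edgeR 4.0.16 in R 4.3.3, by quasi-likelihood tests with TMM scaling, the filterByExpr function of edgeR (count of at least 10, sum of at least 15), and Benjamini-Hochberg adjustment over all genes tested in each of 19 comparisons. Only the libraries compared entered a fit, without a replicate term. The TE tests were interactions of fraction and condition. CPM are TMM-scaled, and log2 CPM used a prior count of 2. The authors tested translation with Xtail, which was not used here.

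Groups were taken from the labels, which number replicates 1 to 3. The numbers were taken to pair libraries where all 3 correlations of deviations from group means were over 0.1. This held for HU against NT in siCTRL cells in total and in polysomal RNA, for siLSM14A against siCTRL upon HU in total RNA, and for polysomal against total RNA in siLSM14A HU, and a replicate block was used beside the main test there. No 2 libraries agreed within sampling noise. The alternatives were DESeq2 1.42.0, RLE scaling, other gene sets and filters, the block, a GC correction (loess of log2 CPM on exonic GC content per library, span 0.3), 1 fit of all libraries, and leaving out each replicate. The tests were checked on simulated data.

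The 10 genes and the gene lists were chosen with earlier results of these data known. All 10 are named for the levels, the change upon HU in siCTRL total RNA and the mean TE, with LSM14A as the check of the depletion. In the other comparisons only some of the 10 are named, a choice made with the values known. Of each list, at most 2 genes per direction were named, by smallest p-value among those that passed an adjusted p-value of 0.05, and the 5 genes most like the mean of the 10 by Pearson correlation. Other genes are said to be named after their values were seen. Library depth, in the report, limits FOSB most, and for the other 9 genes the counting error in total RNA is smaller than the spread between replicates.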

Additional observations from a re-analysis of the deposited data

How the results depend on the processing

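The number of the 10 genes that passed was 0 in the 15 comparisons other than those of polysomal against total RNA, and an alternative changed it in 3 of these. With the replicate block it was 3 for HU in siCTRL total RNA (also 3 with block and GC correction), and 2 for siLSM14A against siCTRL upon HU in total RNA (1 with block and GC correction). Leaving out a replicate gave 0 to 1 for HU in siCTRL and in siLSM14A total RNA. Between polysomal and total RNA, the number in siCTRL NT was 3, with 5 after GC correction, 7 with block and GC correction, and 1 to 3 without a replicate. In siCTRL HU it was 5, with 8 under the block and 4 to 6 without a replicate. In siLSM14A NT it was 5, with 3 under the block and 0 to 6 without a replicate. In siLSM14A HU it was 4, with 2 in 1 fit of all libraries and 2 to 4 without a replicate. The cause of these moves was not tested.

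The following signs turned among the log2 changes recomputed one by one, which are those at an unadjusted p under 0.05 in the test without a block, those called with a block between conditions, JUN, FOS and EGR1 upon HU, and the JUN interaction in total RNA. With 1 replicate left out, the FOS change in siLSM14A against siCTRL upon HU ran from -0.38 to 0.0457, turned without siCTRL HU replicate 1. The EGR1 change upon HU in siLSM14A cells ran from -0.0148 to 0.47, turned without siLSM14A HU replicate 2, and the JUN interaction from -1.09 to 0.0582, turned without siLSM14A NT replicate 3. With GC correction, alone and with the block, the polysomal difference of IER2 was -0.22 and -0.22 in siCTRL NT, -0.18 and -0.18 in siCTRL HU, -0.20 and -0.20 in siLSM14A NT, and -0.14 and -0.14 in siLSM14A HU. That of FOSL1 was -0.35 and -0.35 in siCTRL HU and -0.36 and -0.36 in siLSM14A HU, and that of JUNB was -0.0017 and -0.0012 in siCTRL HU and -0.0029 and -0.0088 in siLSM14A NT. FOSL1, not called as counted in siCTRL NT and siLSM14A NT, turned there too, to -0.42 and -0.43. Values that were not called turned as well with GC correction: of the 10 genes, the number with a positive value went from 4 to 9 for siLSM14A against siCTRL upon HU in polysomal RNA, from 5 to 9 for the same comparison of TE, from 5 to 9 for the TE interaction, and from 8 to 5 for HU in siLSM14A total RNA, where the median went from 0.06 to -0.01. Of these log2 changes of single genes under alternatives that kept all replicates, 291 kept direction and side of the threshold, 13 newly passed, 13 no longer passed and 16 turned. Where the replicate numbers did not pair the libraries, the block stands here as an alternative only.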
